A study of Rattus norvegicus with 28 samples.

Results

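A group of 52 genes was followed that forskolin (FSK), but not exendin-4 (Ex-4), raised at 16 h in wild-type (WT) INS-1 rat insulinoma cells. The members were selected by measured values. In the deposited table of TPM values, which are transcript shares scaled to a fixed total per library, the transcript with the highest mean over the 28 libraries stood for each of 17455 symbols, and 8833 symbols with a mean of at least 5 TPM were eligible. From group means of log2(TPM + 1), a member had to differ from WT CON by at least 1 at 16 h FSK, by under 0.2 at 16 h Ex-4 and by under 0.3 at 1 h FSK. Of the 420 eligible genes at or above the first limit, 73 were under the Ex-4 limit, 305 were under the 1 h limit, and 52 met all. The differences among WT CON, 1 h FSK, 16 h FSK and 16 h Ex-4 are therefore the choice itself and are given without a test.

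The study compared WT INS-1 cells with INS-1 cells carrying a Med14 S983A knock-in, in which the Mediator subunit Med14 has alanine in place of the serine that protein kinase A (PKA) phosphorylates. Both genotypes were put into serum-free medium and left untreated (CON) or given 10 nM Ex-4 or 10 µM FSK for 1, 8 or 16 h, in 2 libraries for each of 14 groups. The knock-in cells came from single sorted cells, and more than a single line was made independently, but the labels do not say which line gave which library. The labels also do not say that replicates were separate cultures, so p-values measure only the spread between the 2 libraries of a group, which may be technical.

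Ex-4 is a peptide agonist of the glucagon-like peptide 1 receptor of beta cells, which activates adenylyl cyclase through Gs. FSK binds adenylyl cyclase itself and raises cyclic AMP without a receptor, so its signal is not limited by receptor desensitization. Cyclic AMP frees the catalytic subunit of PKA, which phosphorylates the transcription factor CREB and other substrates, and the first wave of CREB target genes is followed by later and more tissue-specific changes.

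The label "late" covered unlike courses. In WT cells at 8 h FSK, 22 of the 52 members were already at least 1 above CON on the log2 scale, and 15 stood higher at 8 h than at 16 h, Ifngr1, Smim3 and Sema3a among them. Another 7 members were less than 0.3 above CON at 8 h (Ddah1, Fgb, Kcnq1, Lgals9, Slc16a1, Spr and Stbd1). The words "forskolin-only" held for 16 h in WT cells alone, by the rule. In WT cells 7 members passed 1.5-fold at 8 h Ex-4 (Ccdc163, Ifngr1, Lmo1, Osbpl6, Rcn1, Sema3a and Smim3). The shares of all genes past these limits at 8 h in WT cells are not given. The WT counts at 8 h therefore describe the members only and show nothing particular to them. In S983A cells 20 members (38.5%) were called higher at 16 h Ex-4, against 4.73% of all tested genes.

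The choice also depended on scaling, because TPM values are relative to all transcripts in a library. The median of all 10275 tested genes lay 0.20 below WT CON at 16 h FSK and 0.16 below it at 16 h Ex-4. With each library centred on its median, the same limits gave 37 genes, of which 20 were among the 52, and with scaling on the ERCC spike-in RNAs they gave 34 genes, of which 17 were among the 52. All 52 members passed the filter of a mean of at least 1 TPM used for the tests, since the rule asked for 5, but 3 of them were under 1 TPM in WT CON (Casp4, Sema3a and S100a3). Over the 14 WT libraries alone, 7 members had a mean under 5 TPM and so entered the group through their levels in S983A cells, namely Casp4, Fgb, Gng8, S100a3, Sema3a, Unc5b and Usp18.

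Members near the limits were close to genes left out. Herpud1, Prkca and Taf1a were just inside the first limit with 1.00, 1.01 and 1.03 at 16 h FSK, whereas Itga3, Sertad1 and Zyx were just outside with 0.99, 0.98 and 0.98. Eprs, Angptl8 and Taf1a had 0.19, 0.18 and 0.18 at 16 h Ex-4, and Elk3, Sec24a and Vmp1 missed with 0.21 each. At 1 h FSK the highest members were Dgat2, Sema3a and Ifngr1 with 0.29, 0.25 and 0.23, and the nearest genes outside were Tes, Cdkn1a and Depdc7 with 0.44, 0.45 and 0.50. On mean level, Usp18, Atp10a and Ddah1 were included with 5.30, 5.41 and 5.56 TPM, and Abcc10, RGD1561648 and Msh5 were not with 4.82, 4.06 and 3.62 TPM.

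The libraries held 42551134 to 92635969 fragments, the largest being replicate 2 of S983A 8 h FSK and the next 57231981, and replicates correlated at 0.998 to 0.999 over tested genes. Of 12 beta cell markers 11 were in the table and reached at least 1 TPM, with a summed level of 51671 to 89891 TPM, led by Ins1 and Ins2. Among alpha cell markers Gcg ranged from 6.09 to 1345 TPM between libraries, while Irx2 and Ttr never reached 1 TPM. The part of Gcg in the results was not tested. In bulk RNA, fewer cells of a type and less RNA per cell cannot be told apart. None of the delta, PP, acinar or endothelial markers reached 1 TPM in a library, and the duct, fibroblast and leukocyte lists had 1 gene each that did (Sox9, Pdgfra and Cd68). Med14 had 20.9 ± 0.88 TPM in WT CON and 19.9 ± 0.50 TPM in S983A CON (SD, n = 2 each), which checks no label because a changed codon is not seen in a transcript level.

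Promoter windows were read from RefSeq (GRCr8), each spanning 300 bases around a gene's start, most of them before it, for the 36 members that could be matched, of which 35 were matched by transcript accession. The full cyclic AMP response element (CRE, TGACGTCA) was in 1 of the 36 members, or 2.78%, against 2% of the 27457 genes in the table. Its shorter core TGACG, counted also inside the full element, was in 12 members (33.3% against 23%). The AP-1 site TGANTCA was in 7 (19.4% against 8.04%), the composite C/EBP-ATF site TGATGNAA in 4 (11.1% against 4.16%), the TEAD site GGAATG in 7 (19.4% against 15%), the E-box CACGTG in 4 (11.1% against 7.08%) and TATAAA in 4 (11.1% against 15.3%). Both strands were searched, a match is not evidence of binding, and the transcription start used in INS-1 cells may differ. The windows with a full CRE or a C/EBP-ATF site are shown because CREB, a PKA substrate, binds the CRE and ATF4 the C/EBP-ATF site. Of the 4 members on the list of ATF4 targets, Psat1, Mthfd2 and Stbd1 had windows with neither site. Xpot had no matched window and was not searched. Capitals mark the match, read 5′ to 3′ on the gene's strand.

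Rcan1 (GRCr8 chr11:45118187-45118486, minus strand), with the CRE starting 207 bases before the start: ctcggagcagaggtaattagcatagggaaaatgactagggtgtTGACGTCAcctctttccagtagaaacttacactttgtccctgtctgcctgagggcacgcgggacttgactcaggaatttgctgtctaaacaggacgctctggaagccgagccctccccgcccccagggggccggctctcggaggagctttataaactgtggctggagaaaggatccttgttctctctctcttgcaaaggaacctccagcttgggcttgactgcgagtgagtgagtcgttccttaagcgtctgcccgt
Angptl8 (GRCr8 chr8:28652305-28652604, plus strand), with the C/EBP-ATF site 118 bases before: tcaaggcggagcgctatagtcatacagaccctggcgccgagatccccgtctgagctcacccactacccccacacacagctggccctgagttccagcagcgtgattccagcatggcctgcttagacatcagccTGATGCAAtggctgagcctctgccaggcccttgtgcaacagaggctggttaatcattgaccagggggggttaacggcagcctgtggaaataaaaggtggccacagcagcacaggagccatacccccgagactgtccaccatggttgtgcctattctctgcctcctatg
Herpud1 (GRCr8 chr19:10614658-10614957, minus strand), with the site on the other strand 184 bases before: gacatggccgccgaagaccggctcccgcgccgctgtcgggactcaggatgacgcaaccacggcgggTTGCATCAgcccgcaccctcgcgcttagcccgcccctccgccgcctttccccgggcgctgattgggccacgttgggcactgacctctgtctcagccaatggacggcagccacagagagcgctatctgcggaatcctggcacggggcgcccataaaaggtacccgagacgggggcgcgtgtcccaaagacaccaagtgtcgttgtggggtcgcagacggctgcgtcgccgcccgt
Iars1 (GRCr8 chr17:15193603-15193902, minus strand), with the site on the other strand 24 bases before: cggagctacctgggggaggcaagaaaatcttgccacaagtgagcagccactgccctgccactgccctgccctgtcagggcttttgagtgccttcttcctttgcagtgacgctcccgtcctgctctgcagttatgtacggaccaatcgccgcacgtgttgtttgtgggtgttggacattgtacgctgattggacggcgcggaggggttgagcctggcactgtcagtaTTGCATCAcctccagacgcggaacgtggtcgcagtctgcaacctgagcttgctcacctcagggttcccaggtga
Cars (GRCr8 chr1:208225320-208225619, minus strand), with the site on the other strand 17 bases after: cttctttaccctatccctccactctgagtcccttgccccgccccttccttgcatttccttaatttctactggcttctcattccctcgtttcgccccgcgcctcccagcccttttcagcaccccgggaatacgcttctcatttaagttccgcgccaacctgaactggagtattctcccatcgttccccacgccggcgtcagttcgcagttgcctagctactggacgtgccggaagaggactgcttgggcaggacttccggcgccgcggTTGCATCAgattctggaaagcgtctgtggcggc

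In WT cells the members' median difference from CON was -0.02 at 1 h FSK, 0.89 at 8 h and 1.26 at 16 h, where they ranged from 1.00 to 2.41. The median of all tested genes at the same times was -0.10, -0.34 and -0.20. With Ex-4 the medians over members for 1, 8 and 16 h were -0.01, 0.17 and 0.04. The 12 largest values at 16 h FSK were those of S100a3 (2.41), Gpat3 (2.30), Stbd1 (2.21), Smim3 (2.20), Atp10a (2.19), Ifngr1 (2.02), Gng8 (1.95), Sgms2 (1.93), Lgals9 (1.78), Sema3a (1.72), Unc5b (1.71) and Arrb1 (1.64), all as differences in log2(TPM + 1). At 16 h Ex-4 the rule set an upper limit and no lower one, and the lowest members were S100a4 (-0.88), Psat1 (-0.54), Slc16a1 (-0.33), Rcan1 (-0.30) and Ehd4 (-0.29). The map of differences over all groups shows members that lead at 16 h FSK beside members that had passed their peak.

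**Figure D1:**
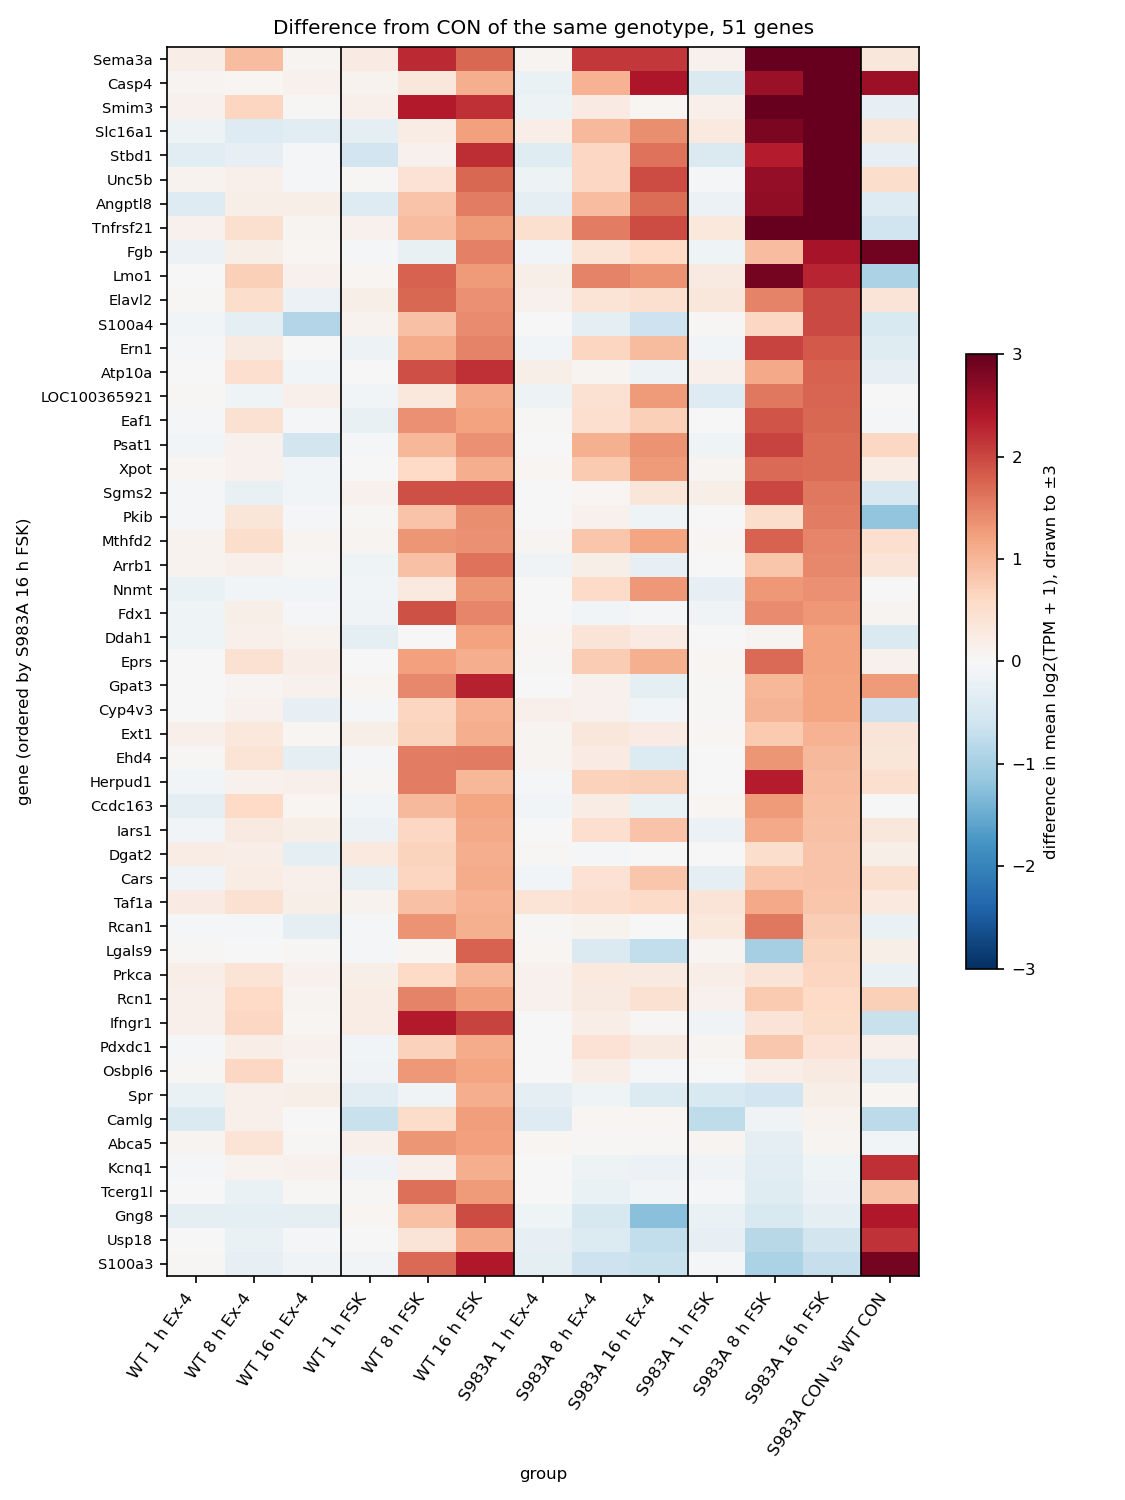
Difference of each group's mean log2(TPM + 1) from CON of the same genotype for 51 of the 52 genes (rows, ordered by the S983A 16 h FSK value), with the S983A against WT difference at CON in the last column; each mean is of 2 libraries and colours stop at ±3. In WT cells the 16 h FSK column is red by the rule and 22 genes are at least 1 higher at 8 h, while in S983A cells the Ex-4 columns are also red for 20 genes at 16 h.

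The S983A libraries were not part of the limits, apart from the mean level, so that values in those cells could be tested. At 16 h FSK, 40 of the 52 members (76.9%) rose against S983A CON, where 12.2% of the 10275 tested genes were called higher, and 1 member fell, where 21.1% were called lower. A call here and below is an adjusted p under 0.05 with a change above 1.5-fold in limma, fitted to log2(TPM + 1) of all 28 libraries. The members' median was 1.198 against -0.10 for all tested genes. Among the 45 members that reached 5 TPM in WT cells alone, 36 rose and 0 fell. The largest values were those of Sema3a, Casp4, Smim3, Slc16a1, Stbd1 and Unc5b, from 4.27 down to 3.05. The smallest were those of S100a3, Usp18, Gng8, Tcerg1l, Kcnq1 and Abca5, from -0.69 up to 0.08. Of these, Sema3a, Casp4, Unc5b, S100a3, Usp18 and Gng8 met the 5 TPM limit only through S983A libraries. Their values are not independent of the choice.

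At 8 h FSK, 36 members (69.2%) rose in S983A cells, against 11.6% of all genes, and 3 fell (Lgals9, S100a3 and Usp18), against 34.5% of all genes. Of the 40 that rose at 16 h, 35 also rose at 8 h, 4 were not called at 8 h (Ddah1, Dgat2, Pkib and Prkca) and Lgals9 fell at 8 h. At 1 h FSK limma called 0 members higher, against 3.19% of all genes, and 1 lower, against 7.2%, and edgeR and DESeq2 gave the same counts. At an unadjusted p under 0.05 without a fold limit, 9 members were higher and 12 lower at 1 h. The member called lower was Camlg, which helps insert tail-anchored proteins into the endoplasmic reticulum (ER), with a difference of -0.75 ± 0.05 (SE, adjusted p = 4.46e-13). These comparisons and those with Ex-4 share the S983A CON libraries.

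**Figure D2:**
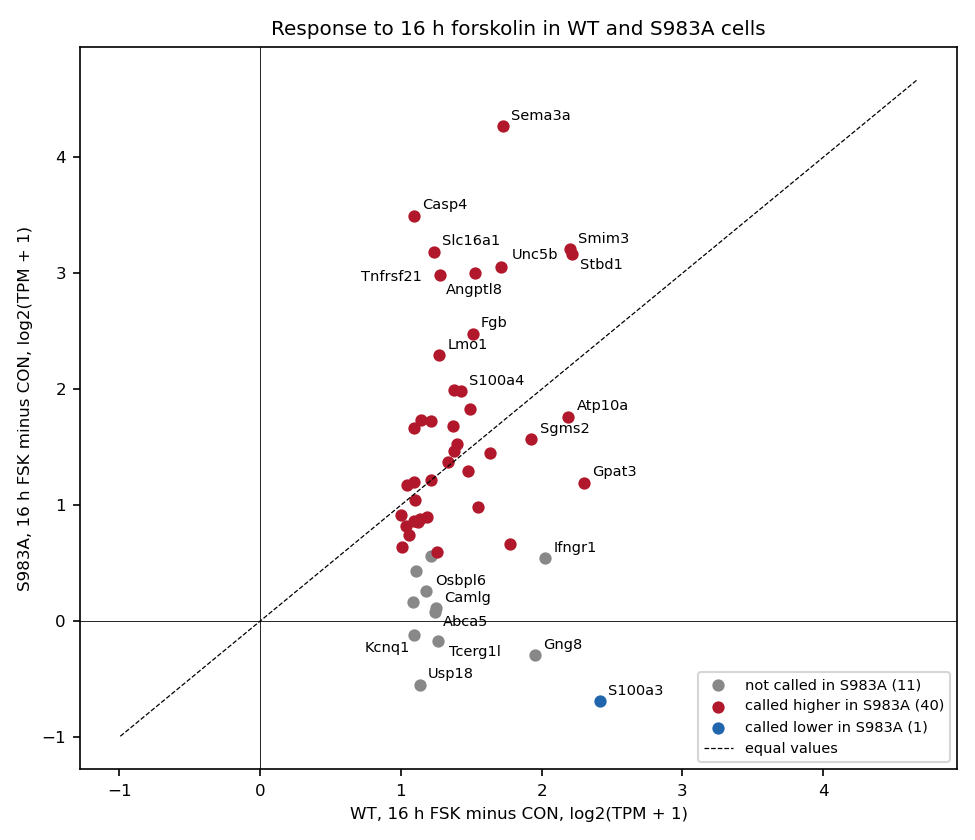
Difference between 16 h FSK and CON in WT cells (x axis, part of the choice) and in S983A cells (y axis), in log2(TPM + 1) from means of 2 libraries per group; each point is 1 of the 52 genes and the dashed line marks equal values. In S983A cells 40 genes were called higher, Sema3a the highest at 4.27, 11 were not called and S100a3 was called lower at -0.69.

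Ex-4 raised many of the members in S983A cells. At 16 h Ex-4, 20 members (38.5%) rose against S983A CON, where 4.73% of all tested genes were called higher, and 5 fell (Gng8, Lgals9, S100a3, S100a4 and Usp18), where 7.15% were called lower. In WT cells no member could exceed 0.2 at this time, so the difference between genotypes at 16 h was fixed on the WT side and was not tested. All 20 members that rose with Ex-4 in S983A cells also rose with FSK there. Casp4, Sema3a, Unc5b and Tnfrsf21 had the largest values with Ex-4, at 2.43, 2.12, 1.96 and 1.96. Of these, only Tnfrsf21 met the 5 TPM limit in the WT libraries alone. The members' median was 0.26, against -0.06 for all genes, and among the 45 members that reached 5 TPM in WT cells 16 rose and 2 fell.

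At 8 h Ex-4, 15 members (28.8%) rose in S983A cells, against 3.21% of all genes, and S100a3 fell, against 3.09%. Compared directly at 16 h in S983A cells, FSK gave higher levels than Ex-4 for 30 members (57.7%), where 5.76% of all genes were called higher and 10.6% lower. Limma called 0 members lower in that comparison, as did edgeR and DESeq2, and 0 were lower at an unadjusted p under 0.05. Of the 20 members that rose with both agents, 11 were higher with FSK, Slc16a1 and Sema3a among them, and 9 were not called different, namely Cars, Eprs, Iars1, Xpot, Psat1, Mthfd2, Herpud1, Nnmt and LOC100365921. A missed call does not show equal levels, and the 9 differences ranged from 0.02 ± 0.04 (SE) for Cars to 0.45 ± 0.06 for LOC100365921. With ERCC scaling 39 members were higher with FSK, and 4 of the 9 were among them, LOC100365921 (0.799), Xpot (0.74), Psat1 (0.69) and Mthfd2 (0.63). That scaling also moved the higher calls over all tested genes from 592 to 2032, and the median of all genes from -0.04 to 0.29. Another 18 members rose with FSK but were not called with Ex-4, and 2 rose with FSK and fell with Ex-4, S100a4 and Lgals9.

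**Figure D3:**
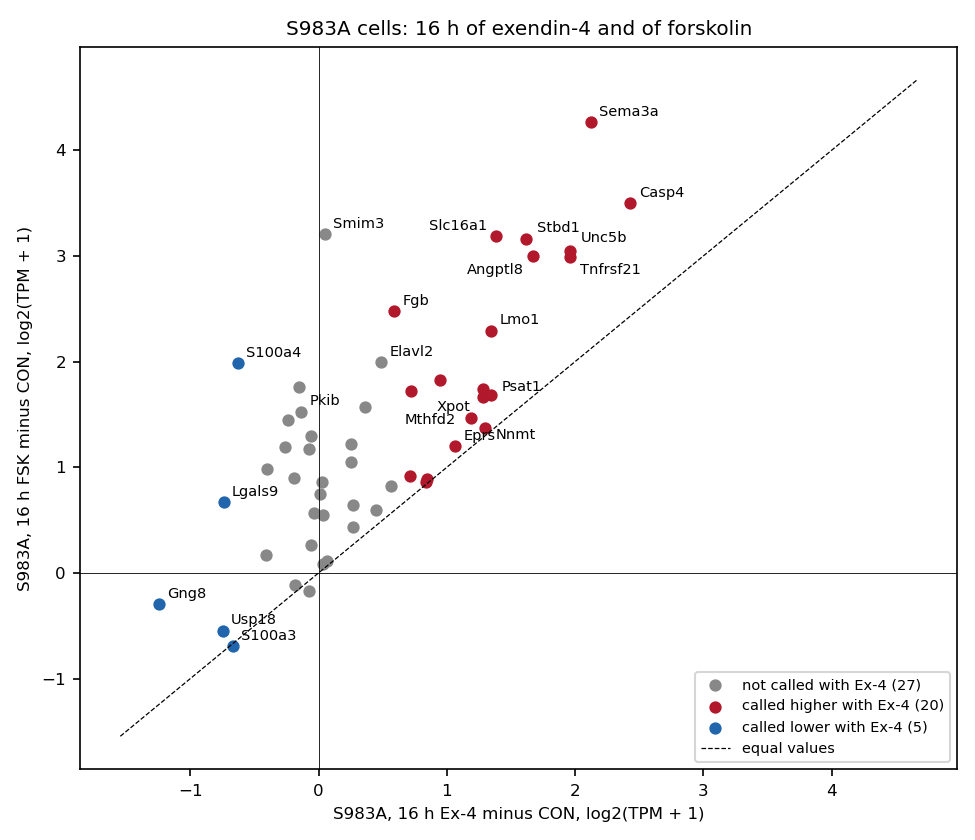
Difference from S983A CON at 16 h Ex-4 (x axis) and at 16 h FSK (y axis) in log2(TPM + 1), from means of 2 libraries per group that share the CON libraries; each point is 1 of the 52 genes and the dashed line marks equal values. Most genes lie above the line, Smim3 at 3.20 with FSK and 0.05 with Ex-4, while Psat1, Xpot, Mthfd2, Nnmt and Eprs lie close to it.

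At 8 h the agents could be compared in WT cells with libraries the limits had not used, apart from the mean level. FSK gave higher levels than Ex-4 for 28 members (53.8%), against 4.77% of all genes, and lower levels for 0 members, against 23.3% of all genes. After centring each library on its median, 44 members were higher, while the higher calls over all tested genes went from 490 to 1058. With ERCC scaling 24 members were higher and 0 lower, and the higher calls over all tested genes went to 343. Angptl8 (0.52), Arrb1 (0.58), Osbpl6 (0.51) and Slc16a1 (0.46) were then under the fold limit. With edgeR and DESeq2, each called 46 members higher and 0 lower, and their counts over all genes are not given here. At an unadjusted p under 0.05, 46 members were higher and 2 lower. The highest values were those of Sgms2, S100a3, Tcerg1l and Ifngr1, from 2.16 down to 1.76, and the lowest those of Fgb, Spr, Ddah1 and Kcnq1, from -0.38 up to 0.04. Of these, S100a3 and Fgb met the 5 TPM limit only through S983A libraries. The members' median was 0.68, against -0.23 for all genes, and 25 of the 45 members that reached 5 TPM in WT cells were higher.

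The difference between FSK and Ex-4 at 8 h was then compared between genotypes. It was larger in S983A cells for 11 members (21.2%), against 3.13% of all genes, and smaller for 9 (17.3%), against 5.07% of all genes. Unc5b, Sema3a, Stbd1 and Casp4 had the largest positive genotype differences, from 1.72 to 1.27. S100a3, Tcerg1l, Ifngr1 and Abca5 had the largest negative ones, from -2.27 to -1.22. Unc5b, Sema3a, Casp4 and S100a3 met the 5 TPM limit only through S983A libraries. Casp4, counted among the 11, turned to -0.27 with edgeR and -0.31 with DESeq2. The median over members was 0.02, against -0.03 for all genes. Among the 45 members that reached 5 TPM in WT cells, 7 were larger and 6 smaller.

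**Figure D4:**
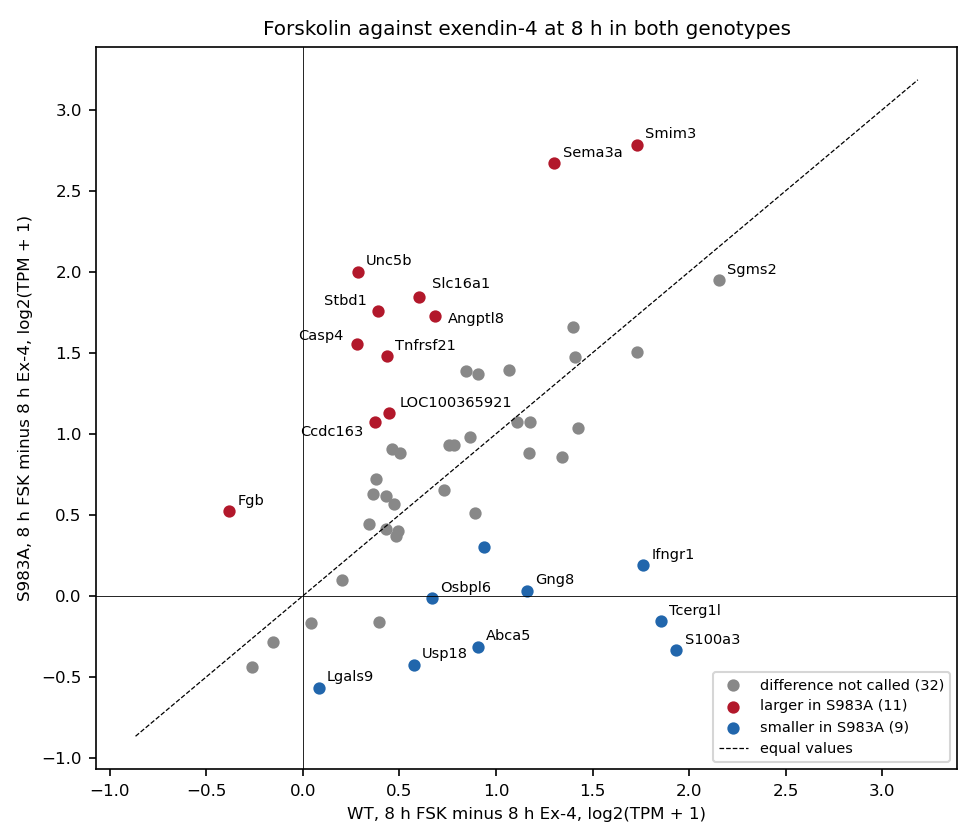
Difference between 8 h FSK and 8 h Ex-4 in WT (x axis) and S983A cells (y axis), in log2(TPM + 1) from means of 2 libraries per group; each point is 1 of the 52 genes and the dashed line marks equal values. The 11 genes called larger in S983A cells lie above the line, Unc5b with a genotype difference of 1.72, and the 9 called smaller lie below it, S100a3 with -2.27.

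Psat1, Mthfd2, Xpot and Stbd1, the members on a list of ATF4 and amino acid stress targets, rose with both agents in S983A cells. Psat1, the aminotransferase of serine synthesis (NM_198738, rn6 chr1:233124090-233145941, minus strand), had 85.8 and 85.1 TPM in WT CON, 212 and 233 TPM at 16 h FSK and 56.7 and 60.0 TPM at 16 h Ex-4. In S983A cells it had 139 and 127 TPM in CON, 419.98 and 437 TPM at 16 h FSK and 341 and 336 TPM at 16 h Ex-4. Its libraries did not overlap between CON and either agent in S983A cells, and the WT 16 h Ex-4 libraries were the lowest of all groups. Psat1 rose by 1.68 ± 0.05 (SE, adjusted p = 1.3e-20) with FSK at 16 h, by 2.04 ± 0.05 (SE, adjusted p = 1.63e-22) at 8 h and by 1.34 ± 0.05 (SE, adjusted p = 9.37e-18) with Ex-4 at 16 h. Mthfd2, a mitochondrial enzyme of one-carbon metabolism, had 96.9 and 92.7 TPM in S983A CON, 264 and 263 TPM at 16 h FSK and 219.7 and 214 TPM at 16 h Ex-4, with differences of 1.46 ± 0.04 and 1.19 ± 0.04 (SE). Xpot, which exports tRNA from the nucleus, had 42.2 and 38.99 TPM in S983A CON, 129 and 133 TPM at 16 h FSK and 106 and 94.6 TPM at 16 h Ex-4. Stbd1, a glycogen-binding protein (NM_001013988, rn6 chr14:16976355-16979760, minus strand), is on the same gene list, and went from 7.17 and 7.12 TPM in S983A CON to 71.1 and 72.8 TPM at 16 h FSK and 24.1 and 23.9 TPM at 16 h Ex-4. In WT cells Stbd1 was still at 8.66 and 10.7 TPM at 8 h FSK, near the 8.67 and 8.73 TPM of CON and below the 42.2 and 45.8 TPM at 16 h, whereas at 8 h FSK in S983A cells it was at 39.5 and 42.6 TPM.

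ATF4 is the transcription factor of the integrated stress response. The list held 4 members and 36 other tested genes, and of the others 33 rose and 0 fell at 16 h FSK in S983A cells, with a median of 1.52. At 16 h Ex-4 in S983A cells 30 of the 36 rose and 0 fell, with a median of 1.2997. In WT cells the median of the 36 was 1.37 above CON at 16 h FSK and 0.36 at 16 h Ex-4, described without a test because the members were chosen on these groups. Atf4 and Trib3 were named after their values were seen. Atf4 itself was at 368 TPM in S983A CON and at 1514 TPM at 16 h FSK, and Trib3, an inhibitor of Akt signalling, rose by 4.03 with FSK and by 3.30 with Ex-4. The list and the members were picked with earlier results of these libraries known and are not independent of each other.

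Aminoacyl tRNA synthetases, which charge tRNA with amino acids, were represented by Eprs, Iars1 and Cars. Eprs had 154 and 144 TPM in S983A CON, 489.8 and 483 TPM at 8 h FSK and 346 and 343 TPM at 16 h FSK, so that the 8 h libraries stood above those of 16 h. At 16 h Ex-4 it had 318 and 307 TPM, a rise of 1.06 ± 0.04 (SE, adjusted p = 1.03e-16). Iars1 was at 59.03 and 56.2 TPM in S983A CON, 106 and 109 TPM at 16 h FSK and 106 and 102 TPM at 16 h Ex-4. Cars was at 54.5 and 53.96 TPM in S983A CON, 98.2 and 99.7 TPM at 16 h FSK and 96.6 and 99.2 TPM at 16 h Ex-4. For both, FSK and Ex-4 libraries lay close together and well above CON. Of the 17 other tested synthetases 12 rose with FSK and 9 with Ex-4 at 16 h in S983A cells, and 0 fell with either, with medians of 0.78 and 0.79. In WT cells the median of the 17 was 0.45 above CON at 16 h FSK and 0.06 at 16 h Ex-4. The C/EBP-ATF site was in the windows of Iars1 and Cars but not in that of Eprs, nor in those of Psat1, Mthfd2 and Stbd1. For Xpot no window was matched.

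Among genes of the ER, Herpud1 was higher at 8 h than at 16 h FSK. Herpud1, which takes part in ER-associated degradation (NM_053523, rn6 chr19:11046907-11057254, minus strand), had 100.2 and 94.9 TPM in WT CON, 281 and 285 TPM at 8 h FSK and 194 and 199 TPM at 16 h FSK. In S983A cells it went from 134 and 141 TPM in CON to 739 and 679 TPM at 8 h FSK and 258 and 263 TPM at 16 h. The 8 h FSK libraries were the highest in both genotypes, with no overlap with 16 h. Against 8 h Ex-4, 8 h FSK was higher by 1.398 ± 0.05 (SE, adjusted p = 1.47e-17) in WT cells. Ern1, the kinase and ribonuclease IRE1 that senses unfolded proteins, had 7.95 and 7.91 TPM in S983A CON, 37.4 and 33.7 TPM at 8 h FSK and 16.8 and 15.5 TPM at 16 h Ex-4, and rose by 2.03 ± 0.10 (SE, adjusted p = 8.94e-16) and 0.94 ± 0.10 (SE, adjusted p = 1.5e-08). Rcn1, a calcium-binding ER protein, was at 280.1 and 256 TPM in S983A CON and 407 and 404 TPM at 16 h FSK, a rise of 0.598 ± 0.04 (SE) that ended at 0.53 without replicate 2 of S983A CON, under the fold limit. Camlg was at 56.2 and 55.7 TPM in WT CON and 136 and 133 TPM at 16 h FSK, but at 31.6 and 32.8 TPM in S983A CON and 34.3 and 35.4 TPM at S983A 16 h FSK, where its 16 h difference of 0.11 ± 0.05 was not called.

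The ligand Sema3a and the receptors Unc5b and Tnfrsf21 rose with both agents in S983A cells. Sema3a, a secreted semaphorin (NM_017310, rn6 chr4:18178854-18395165, minus strand), had 0.77 and 0.41 TPM in WT CON, 6.07 and 6.79 TPM at 8 h FSK and 3.86 and 4.58 TPM at 16 h FSK. S983A libraries had 1.004 and 0.98 TPM in CON, 54.96 and 52.9 TPM at 8 h FSK, 38.1 and 36.5 TPM at 16 h FSK and 8.37 and 6.999 TPM at 16 h Ex-4. The CON libraries of both genotypes were low, and the S983A libraries at 8 and 16 h FSK lay above every WT library. Sema3a rose by 4.27 ± 0.10 (SE, adjusted p = 4.59e-22) at 16 h FSK and by 2.12 ± 0.10 (SE, adjusted p = 3.64e-15) at 16 h Ex-4, and its FSK against Ex-4 difference at 8 h was larger in S983A cells by 1.37 ± 0.14 (SE, adjusted p = 4.27e-08). Unc5b, a netrin receptor, was at 2.93 and 3.11 TPM in S983A CON, 15.1 and 14.2 TPM at 16 h Ex-4 and 32.1 and 32.5 TPM at 16 h FSK, while WT libraries reached 7.68 and 8.79 TPM at 16 h FSK. Tnfrsf21, death receptor 6, was at 9.23 and 9.04 TPM in S983A CON, 78.3 and 80.5 TPM at 16 h FSK and 38.4 and 38.5 TPM at 16 h Ex-4. Unc5b had the largest positive genotype difference of the members at 8 h, 1.72 ± 0.13 (SE, adjusted p = 2.45e-10). Sema3a and Unc5b met the 5 TPM limit only through their S983A libraries, so these tests are not independent of the choice.

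Ifngr1, the ligand-binding chain of the interferon gamma receptor (NM_053783, rn6 chr1:15062380-15080815, plus strand), had a smaller difference between FSK and Ex-4 in S983A cells. It had 62.7 and 56.05 TPM in WT CON, 88.8 and 93.99 TPM at 8 h Ex-4, 306 and 319 TPM at 8 h FSK and 243 and 245 TPM at 16 h FSK. The S983A values were 36.5 and 36.9 TPM in CON, 43.6 and 41.5 TPM at 8 h Ex-4, 47.9 and 49.3 TPM at 8 h FSK and 53.2 and 54.9 TPM at 16 h FSK. All S983A libraries were below all WT CON libraries, and 8 and 16 h FSK libraries did not overlap CON in either genotype. The S983A difference at 16 h FSK was 0.54 ± 0.05 (SE, adjusted p = 1.05e-10), under the fold limit, which it passed with median centring (0.69), ERCC scaling (0.80), edgeR (0.64) and DESeq2 (0.68). The FSK against Ex-4 difference at 8 h was smaller than in WT cells, with a genotype difference of -1.57 ± 0.07 (SE, adjusted p = 6.59e-15). Of the 45 receptor genes of that list other than members, 16 rose and 10 fell at 16 h FSK in S983A cells, with a median of 0.07.

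Several members that did not rise with FSK in S983A cells started from a higher CON level there. S100a3, a small calcium-binding protein gene (NM_053681, rn6 chr2:189993262-189996029, plus strand), had 1.303 and 0.65 TPM in WT CON and 8.96 and 9.84 TPM at 16 h FSK. In S983A cells it had 13.2 and 13.2 TPM in CON, 6.54 and 6.05 TPM at 8 h FSK, 8.36 and 7.23 TPM at 16 h FSK and 8.58 and 7.29 TPM at 16 h Ex-4. The S983A CON libraries were above every WT library, and the S983A libraries at 8 and 16 h of either agent were below S983A CON. S100a3 fell at 16 h FSK, with a difference of -0.69 ± 0.13 (SE, adjusted p = 2.64e-05), a call that was lost with median centring and with ERCC scaling. Gng8, a G protein gamma subunit, had 1.98 and 3.03 TPM in WT CON, 12.8 and 12.1 TPM at 16 h FSK, 15.4 and 19.3 TPM in S983A CON, 13.6 and 14.1 TPM at 16 h FSK and 7.54 and 5.91 TPM at 16 h Ex-4. The 16 h Ex-4 libraries were the lowest of the S983A libraries, with a difference from CON of -1.25 ± 0.15 (SE, adjusted p = 7.12e-08). In CON, the members' median difference of S983A from WT was 0.14, against -0.07 for all tested genes. Across members, 10 were over 1.5-fold higher and 6 over 1.5-fold lower in S983A CON, without a test because the rule used WT CON. The share of all genes with such differences is not given, so these counts show nothing particular to the members. In 6 members the S983A CON mean exceeded the WT 16 h FSK mean (Casp4, Fgb, Gng8, Kcnq1, S100a3 and Usp18). All of these except Kcnq1 met the 5 TPM limit only through S983A libraries.

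The remaining members with a high S983A CON level split in their response. Kcnq1, a voltage-gated potassium channel gene, had 4.52 and 3.77 TPM in WT CON, 9.28 and 10.7 TPM at 16 h FSK, 21.7 and 23.3 TPM in S983A CON and 20.2 and 21.1 TPM at 16 h FSK, where its difference of -0.12 ± 0.08 (SE) was not called. Usp18, a protease that removes the ubiquitin-like modifier ISG15, had 1.88 and 1.62 TPM in WT CON and 4.65 and 5.44 TPM at WT 16 h FSK, then 11.6 and 11.03 TPM in S983A CON, 7.08 and 7.81 TPM at 16 h FSK and 6.45 and 6.24 TPM at 16 h Ex-4. Both genes had S983A libraries above the WT libraries in CON. Fgb, the fibrinogen beta chain, was unlike them in that FSK added to the higher level. Fgb had 3.497 and 3.69 TPM in WT CON, 11.98 and 12.2 TPM at WT 16 h FSK, 34.6 and 31.8 TPM in S983A CON and 189.7 and 189 TPM at S983A 16 h FSK, a rise of 2.48 ± 0.10 (SE, adjusted p = 1.13e-17). Casp4, an inflammatory caspase (NM_053736, rn6 chr8:2635890-2651682, plus strand), was close to the limit of detection in WT cells, with 0 and 0.058 TPM in CON, from 0 and 2 fragments, and 1.52 and 0.91 TPM at 16 h FSK. In S983A cells Casp4 had 5.14 and 4.98 TPM in CON, 33.9 and 29.6 TPM at 16 h Ex-4 and 67.8 and 67.01 TPM at 16 h FSK. Its genotype difference at 8 h was 1.27 ± 0.16 (SE, adjusted p = 5.92e-07) on log2(TPM + 1) but -0.27 with edgeR and -0.31 with DESeq2 on recovered fragments, so its direction depended on the scale. Casp4, Fgb and Usp18 met the 5 TPM limit only through S983A libraries.

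**Figure D5:**
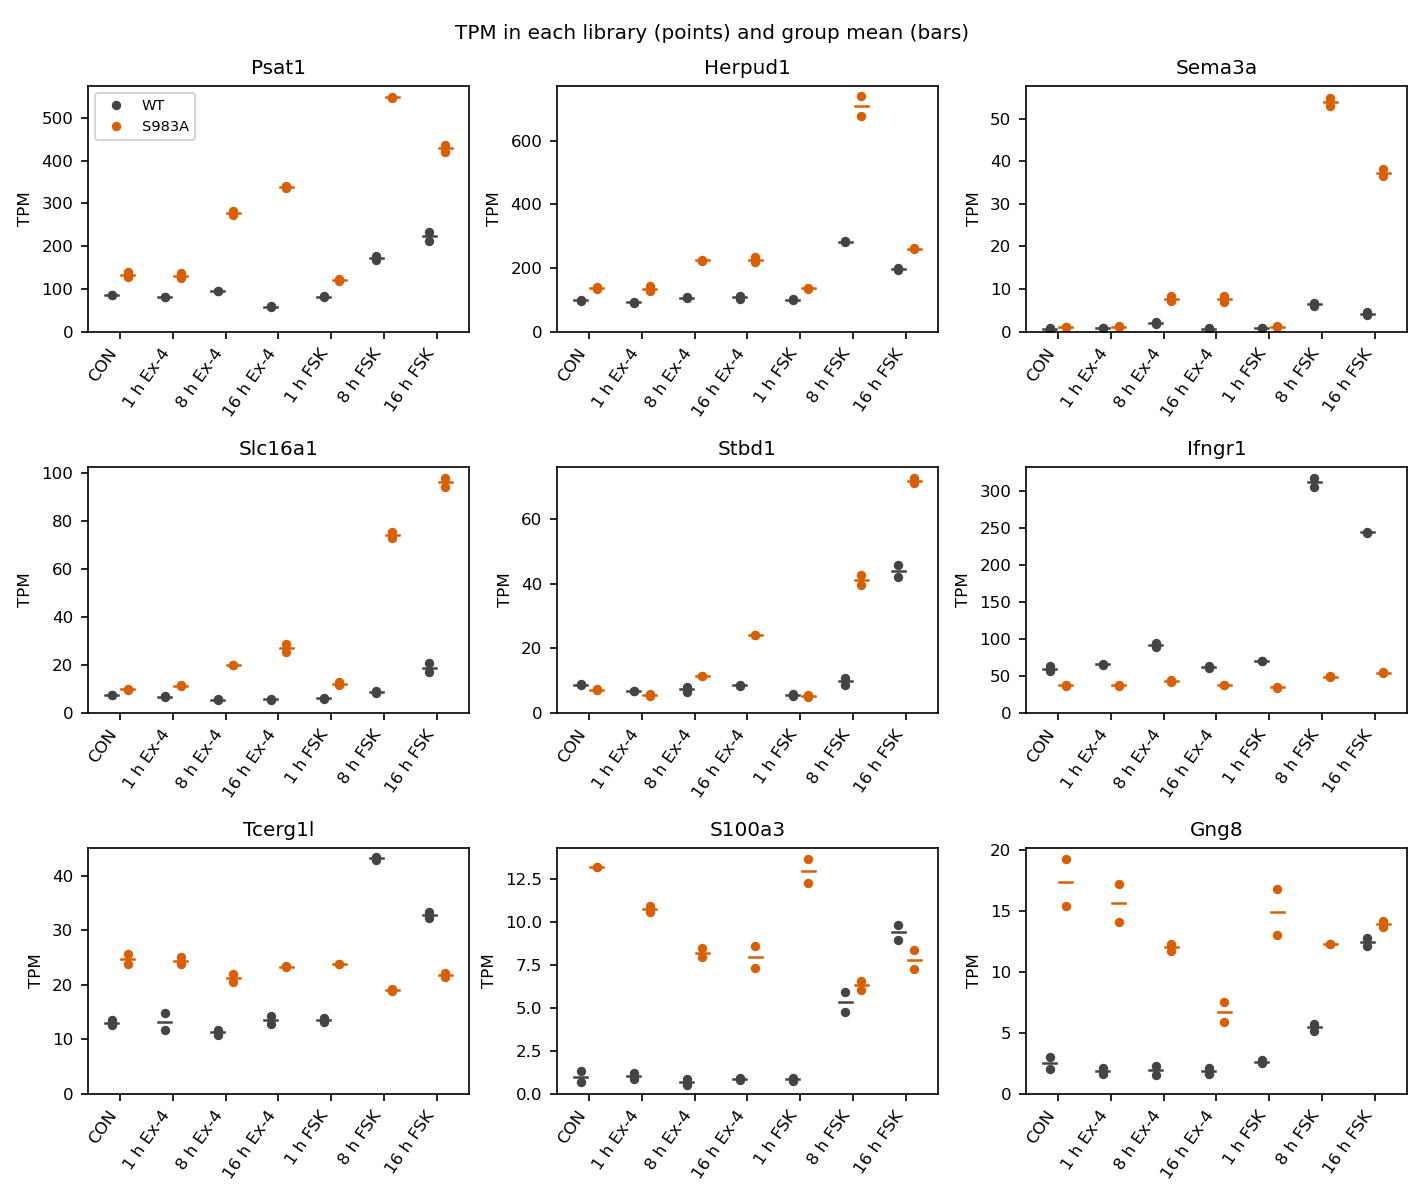
TPM of 9 genes in each library (points) and the mean of each group of 2 libraries (short horizontal lines) for WT and S983A cells in the 7 treatment groups named on the x axis; each panel has its own linear axis from 0. Psat1, Herpud1, Sema3a, Slc16a1 and Stbd1 reach higher levels in S983A cells, Ifngr1 and Tcerg1l reach higher levels in WT cells, and S100a3 and Gng8 start high in S983A CON.

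Of the 6 members on a list of lipid metabolism, 4 rose at 16 h FSK in S983A cells and none was called higher at 16 h Ex-4. Of all 52 members, 76.9% rose with FSK and 38.5% with Ex-4, against 12.2% and 4.73% of all tested genes. Gpat3, an acyltransferase of glycerolipid synthesis, had 8.48 and 7.57 TPM in S983A CON, 19.7 and 19.6 TPM at 16 h FSK and 7.03 and 6.03 TPM at 16 h Ex-4, and rose by 1.19 ± 0.09 (SE, adjusted p = 2.59e-12) with FSK. Sgms2, which makes sphingomyelin (NM_001014043, rn6 chr2:236458276-236480502, minus strand), was at 9.88 and 8.34 TPM in WT CON, 7.32 and 8.06 TPM at 8 h Ex-4 and 35.5 and 39.9 TPM at 8 h FSK, which gave the largest FSK against Ex-4 difference of the members in WT cells, 2.16 ± 0.08 (SE, adjusted p = 2.97e-17). Fdx1, the ferredoxin that passes electrons to mitochondrial P450 enzymes, likewise stood at 19.8 and 20.7 TPM with Ex-4 and 70.1 and 69.1 TPM with FSK at 8 h in WT cells. Neither gene's FSK libraries came near those of Ex-4. Dgat2, which completes triglyceride synthesis, rose in S983A cells at 16 h FSK by 0.86 ± 0.08 (SE). Abca5, a lipid transporter, and Osbpl6, an oxysterol-binding protein, were not called higher in S983A cells. Abca5 had 18.7 and 20.2 TPM at 8 h FSK in WT cells against 7.27 and 7.08 TPM in WT CON, but 5.35 and 5.33 TPM at 8 h FSK in S983A cells against 7.05 and 6.33 TPM in S983A CON. Osbpl6 had 16.3 and 15.8 TPM at 8 h FSK in WT cells and 4.87 and 5.29 TPM in S983A cells. Angptl8, a secreted inhibitor of lipoprotein lipase, has a transcript span that overlaps that of Dock6 on the other strand. Angptl8 was at 47.5 and 49.2 TPM in S983A CON, 154 and 158 TPM at 16 h Ex-4 and 389 and 400.1 TPM at 16 h FSK. Of the 44 other tested genes of the lipid list 13 rose and 4 fell at 16 h FSK in S983A cells, with a median of 0.27.

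Of the 4 members on the list of cyclic AMP pathway regulators, Pkib, Arrb1 and Rcan1 rose at 16 h FSK in S983A cells and Gng8 was not called. Among all 52 members 76.9% rose there, against 12.2% of all tested genes. Pkib, a peptide inhibitor of the PKA catalytic subunit (NM_012627, rn6 chr20:40618128-40712598, plus strand), had 33.8 and 37.3 TPM in WT CON, 67.4 and 62.4 TPM at 8 h FSK and 93.1 and 97.7 TPM at 16 h FSK. The same gene in S983A cells had 15.9 and 14.3 TPM in CON, 21.99 and 22.1 TPM at 8 h FSK, 44.5 and 46.1 TPM at 16 h FSK and 14.6 and 12.7 TPM at 16 h Ex-4. Its S983A level was lower in each group, and it rose by 1.53 ± 0.07 (SE, adjusted p = 1.97e-16) at 16 h FSK, while its difference of -0.14 ± 0.07 at 16 h Ex-4 was not called. Arrb1, beta-arrestin 1, which desensitizes G protein-coupled receptors, was at 5.78 and 5.33 TPM in S983A CON, 17.5 and 16.2 TPM at 16 h FSK and 4.76 and 4.32 TPM at 16 h Ex-4. Rcan1, an inhibitor of calcineurin and the member with a full CRE, peaked at 8 h FSK in both genotypes, with 113 and 116 TPM in WT cells against 41.9 and 42.9 TPM at 8 h Ex-4. In S983A cells these levels were 119 and 117 TPM with FSK and 42.5 and 40.9 TPM with Ex-4. The 8 h FSK difference from Ex-4 was 1.41 ± 0.05 (SE, adjusted p = 2.29e-18) in WT cells, with a genotype difference of 0.06 ± 0.07 (SE). Prkca, protein kinase C alpha, which is on none of the lists, rose by 0.64 ± 0.10 (SE) at 16 h FSK in S983A cells. Of the 52 other tested genes of the cyclic AMP list 12 rose and 17 fell at that time, with a median of -0.26.

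S100a4 and Lgals9 moved in opposite directions with the agents in S983A cells. S100a4, a calcium-binding protein of motile cells, had 9.16 and 8.26 TPM in S983A CON, 38.5 and 36.1 TPM at 16 h FSK and 5.38 and 5.16 TPM at 16 h Ex-4. Its rise with FSK was 1.98 ± 0.11 (SE, adjusted p = 7.58e-15) and its difference with Ex-4 was -0.63 ± 0.11 (SE, adjusted p = 1.55e-05), which came to -0.56 without replicate 1 of S983A CON. Lgals9, the secreted lectin galectin 9, had 19.6 and 18.6 TPM in S983A CON, 9.27 and 8.85 TPM at 8 h FSK, 31.1 and 30.8 TPM at 16 h FSK and 10.8 and 11.2 TPM at 16 h Ex-4. Its difference from CON was -0.999 ± 0.06 (SE, adjusted p = 1.15e-13) at 8 h FSK and 0.67 ± 0.06 (SE) at 16 h, whereas in WT cells it was at 17.9 and 16.02 TPM in CON, 18.8 and 16.8 TPM at 8 h FSK and 59.2 and 61.9 TPM at 16 h FSK. Ext1, a heparan sulfate polymerase, rose by 1.05 ± 0.05 (SE) at 16 h FSK in S983A cells.

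Among transport and metabolism genes, Slc16a1 had the largest rise in S983A cells. Slc16a1, the monocarboxylate transporter MCT1, which beta cells normally hold at a low level (NM_012716, rn6 chr2:207108552-207128561, plus strand), had 7.31 and 7.39 TPM in WT CON, 8.36 and 9.04 TPM at 8 h FSK and 16.9 and 20.6 TPM at 16 h FSK. In the S983A libraries it was at 9.78 and 9.59 TPM in CON, 75.3 and 73.05 TPM at 8 h FSK, 94.4 and 97.9 TPM at 16 h FSK and 28.7 and 25.1 TPM at 16 h Ex-4. Each S983A library under 8 or 16 h of FSK exceeded every WT library. Slc16a1 rose by 3.19 ± 0.08 (SE, adjusted p = 4.59e-22) at 16 h FSK and by 1.38 ± 0.08 (SE, adjusted p = 5.08e-14) at 16 h Ex-4. Atp10a, a phospholipid flippase, was at 2.37 and 2.26 TPM in S983A CON and 10.2 and 10.3 TPM at 16 h FSK, and at 2.89 and 2.94 TPM in WT CON and 16.3 and 17.4 TPM at WT 16 h FSK. Nnmt, which methylates nicotinamide, was at 9.35 and 8.104 TPM in S983A CON, 24.2 and 23.95 TPM at 16 h FSK and 23.4 and 22.3 TPM at 16 h Ex-4. Ddah1, which degrades methylarginines, was at 3.98 and 3.78 TPM at 8 h FSK and 9.44 and 9.85 TPM at 16 h FSK in S983A cells, from 3.65 and 3.501 TPM in CON, and in WT cells at 4.95 and 5.499 TPM at 8 h and 12.9 and 13.8 TPM at 16 h. Spr, sepiapterin reductase, which makes tetrahydrobiopterin, was at 174 and 175 TPM at 16 h FSK in WT cells and at 91.2 and 100.6 TPM in S983A cells, where its difference from CON of 0.17 ± 0.05 (SE) was not called. Cyp4v3, a fatty acid hydroxylase, and Ehd4, an endosomal membrane protein, rose in S983A cells at 16 h FSK by 1.18 ± 0.07 and 0.98 ± 0.05.

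Among regulators of transcription and RNA, Lmo1 and Elavl2 rose with FSK in S983A cells and Tcerg1l was not called. Lmo1, a LIM domain cofactor (NM_139112, rn6 chr1:173728183-173764246, minus strand), had 34.9 and 34.9 TPM in WT CON and 122 and 122 TPM at 8 h FSK, and 17.98 and 17.4 TPM in S983A CON, 142 and 132 TPM at 8 h FSK and 44.9 and 48.3 TPM at 16 h Ex-4. From the lower S983A CON level its rise at 8 h FSK was 2.88 ± 0.06 (SE, adjusted p = 9.44e-24). Elavl2, a neuronal RNA-binding protein, was at 6.303 and 5.57 TPM in S983A CON and 27.02 and 26.1 TPM at 16 h FSK, above the 12.2 and 13.3 TPM of WT cells. Tcerg1l was at 13.5 and 12.6 TPM in WT CON, 43.04 and 43.5 TPM at 8 h FSK and 33.3 and 32.3 TPM at 16 h FSK, and at 25.6 and 23.8 TPM in S983A CON, 19.2 and 18.9 TPM at S983A 8 h FSK and 22.2 and 21.4 TPM at S983A 16 h FSK. Its S983A libraries under 8 h FSK were below those of CON, and the FSK against Ex-4 difference at 8 h was smaller than in WT cells, with a genotype difference of -2.01 ± 0.10 (SE, adjusted p = 2.2e-13). Eaf1, an elongation factor cofactor whose transcript span overlaps that of Mettl6 on the other strand, rose by 1.72 ± 0.05 at 16 h FSK in S983A cells. Taf1a, a subunit of the RNA polymerase I selectivity factor, rose there by 0.82 ± 0.07.

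Smim3, which codes for a small membrane protein (NM_173126, rn6 chr18:55744809-55771730, minus strand), had the largest FSK against Ex-4 difference of the members at 16 h in S983A cells. It had 2.76 and 2.17 TPM in WT CON, 16.4 and 17.3 TPM at 8 h FSK, 14.8 and 14.9 TPM at 16 h FSK and 2.56 and 2.47 TPM at 16 h Ex-4. S983A cells had 1.86 and 1.997 TPM in CON, 21.9 and 24.02 TPM at 8 h FSK, 26.6 and 25.4 TPM at 16 h FSK and 2.08 and 1.98 TPM at 16 h Ex-4. Ex-4 libraries at 16 h overlapped the range of CON, and FSK libraries at 8 and 16 h were far above it. At 8 h Ex-4 the WT libraries, with 4.19 and 4.58 TPM, were above WT CON. Smim3 rose by 3.205 ± 0.09 (SE, adjusted p = 4.78e-21) at 16 h FSK in S983A cells, and FSK exceeded Ex-4 there by 3.15 ± 0.09 (SE, adjusted p = 2.9e-20). LOC100365921, named Pigy in RefSeq, a subunit of the enzyme that starts glycosylphosphatidylinositol anchors, rose with both agents in S983A cells, by 1.74 ± 0.06 and 1.28 ± 0.06 (SE) at 16 h. Ccdc163, a coiled-coil protein gene, rose by 0.899 ± 0.10 with FSK. Pdxdc1, whose transcript span overlaps that of Ntan1 on the other strand, had a difference of 0.44 ± 0.06 with FSK that was not called. That difference was called with median centring (0.59), ERCC scaling (0.68) and DESeq2 (0.59). Overlap of exons was not checked, and whether the quantification used strand is not clear from the sources used here. The values of Pdxdc1, Angptl8 and Eaf1 may therefore include reads of the overlapping genes. Ntan1 had a mean of 119 TPM against 18.4 TPM for Pdxdc1.

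Other lists held 1 member, a few or none, and their other tested genes are given for 16 h FSK in S983A cells, where the median of all genes was -0.10. Secreted ligands other than Sema3a had 23 of 45 higher and 7 lower (median 0.61), matrix and protease genes other than Ext1 and Lgals9 had 12 of 30 higher and 4 lower (0.33), and actin and YAP/TAZ target genes other than S100a4 had 10 of 51 higher and 6 lower (-0.07). Ion channels other than Kcnq1 had 9 of 51 higher and 18 lower (-0.23), vesicle traffic genes other than Ehd4 had 17 of 76 higher and 4 lower (0.21), and cell fate regulators other than the members had 19 of 63 higher and 22 lower (0.05). Interferon genes other than Usp18 and Ifngr1 had 11 of 40 higher and 8 lower (-0.17), detoxification genes other than Nnmt had 13 of 35 higher and 5 lower (0.37), polyamine and arginine genes other than Ddah1 had 7 of 20 higher and 3 lower (0.34), and serotonin genes other than Spr had 2 of 9 higher and 3 lower (-0.06). Mitochondrial chaperones and proteases, with 8 of 22 higher and 1 lower (0.43), and p53 targets, with 9 of 24 higher and 3 lower (0.10), held no member. In all, 33 of the 52 members were on at least 1 of the 17 lists and 19 were on none.

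Further features were also compared, with no test. The members' exon lengths ranged from 481 to 5172 bases with a median of 2031, against 2121 for the 8833 eligible genes. Their median level in S983A CON was 14.5 TPM, against 35.8 TPM for the eligible genes. The S983A CON libraries are part of the mean used for the limit on level, so this value is not independent of the choice. They lay on 17 chromosomes, with 10 of the 52 (19.2%) on chromosome 1, where 12.2% of eligible genes were.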

How the data were processed

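RNA-seq of 28 INS-1 libraries was analysed in 14 groups of 2. The authors aligned reads with STAR 2.5.3a to rn6 with the ERCC sequences and made TPM values per RefSeq transcript with HOMER 4.11.1, and the deposited table holds those TPM values without spike-in scaling. A deposited count table gives the authors' counts of 92 ERCC sequences. DESeq2 1.24.0 is also named in the submitters' processing notes. Of 19223 lines, 92 were ERCC sequences and 1676 were further transcripts of a symbol, which left 17455 symbols.

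The 10275 genes whose mean reached 1 TPM were fitted in limma 3.58.1 (R 4.3.3) as log2(TPM + 1), all 28 libraries together with 14 residual degrees of freedom and a mean trend, with Benjamini-Hochberg adjustment over all genes. The limits for a call were an adjusted p of 0.05 and 1.5-fold. A fold change on this scale understates that of low genes. The members and gene lists were chosen with earlier results of these data known, so neither is independent support. Genes named were the 12 largest by WT 16 h FSK, the 6 highest and lowest by S983A 16 h FSK, the 4 highest and lowest by WT 8 h FSK against Ex-4 and by genotype difference, members on a gene list, and those nearest each limit. Other members (Camlg, Ccdc163, Cyp4v3, Eaf1, Ern1, LOC100365921, Pdxdc1, Rcn1, Angptl8, Taf1a, Prkca and Herpud1 where they are described by role) were named with their values known. The values of 1 member are not reported here.

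Fragments were recovered from TPM, exon length and ERCC counts. Of 124685 values checked, 100% came out whole within 0.05 reads plus the rounding error of the TPM value, where chance gives 22.6%. Totals were 42551134 to 92635969 fragments. The recovered fragments were tested with edgeR 4.0.16 and DESeq2 1.42.0 as alternatives. Other alternatives changed the pseudocount, filter, scaling, libraries in the fit, replicate block, fold limit and choice of members. The fit was tested on simulated data before use. Same-numbered libraries of different groups did not deviate together (r from -0.28 to 0.28, median 0.003, above 0.1 in 17 of 91 pairs), so the numbers were not taken as pairs.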

Additional observations from a re-analysis of the deposited data

Results flagged for a closer look

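The difference between FSK and Ex-4 at 8 h differed between genotypes, by limma's interaction term, for 20 of the 52 genes, where 3.13% of all tested genes were called higher and 5.07% lower. It was larger in S983A cells for Unc5b (1.72), Sema3a (1.37), Stbd1 (1.37), Casp4 (1.27), Slc16a1 (1.24), Smim3 (1.05), Tnfrsf21 (1.04), Angptl8 (1.04), Fgb (0.903), Ccdc163 (0.701) and LOC100365921 (0.68), all as differences in log2(TPM + 1), but for Casp4 the value turned to -0.27 with edgeR and -0.31 with DESeq2. Those for which it was smaller in S983A cells included S100a3 (-2.27), Tcerg1l (-2.01), Ifngr1 (-1.57), Abca5 (-1.22), Gng8 (-1.13), Usp18 (-0.999), Osbpl6 (-0.68) and Lgals9 (-0.65). Casp4, Fgb, Gng8, S100a3, Sema3a, Unc5b and Usp18 met the 5 TPM limit only through S983A libraries. At 16 h FSK, S100a3 was above CON in both WT libraries, by the choice of members, and below CON in both S983A libraries, with a difference there of -0.69, and that difference between genotypes was not tested.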

How the results depend on the processing

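Without a filter, with a mean of at least 5 TPM, or with only the libraries of a comparison, the counts of called members were those reported. With the replicate block they were too, at 40 higher and 1 lower at S983A 16 h FSK and 28 higher at WT 8 h FSK against Ex-4. At S983A 16 h FSK the 1 lower call became 2 with a pseudocount of 0.1, 0 with median centring or ERCC scaling and 0 with members chosen again after median centring. With ERCC scaling, 4 members were lower at 1 h FSK and 0 at 8 h Ex-4 in S983A cells. For WT 8 h FSK against Ex-4, median centring gave 44 higher, edgeR and DESeq2 46 each, and ERCC scaling 24. Without the fold limit, S983A cells had 3 lower at 16 h FSK, 9 lower at 8 h FSK, 7 higher and 12 lower at 1 h FSK, 10 lower at 16 h Ex-4, and 31 higher and 7 lower at 8 h Ex-4, WT 8 h FSK against Ex-4 had 46 higher and 2 lower, and the genotype difference had 21 higher. Members chosen again after median centring gave 1 lower at 8 h FSK, and 5 higher and 4 lower in the genotype difference. Choosing again with ERCC scaling gave 34 members. The direction turned for Casp4 in the genotype difference, at -0.27 with edgeR and -0.31 with DESeq2. Of 5616 values for single members under the alternatives, 5455 kept direction and side of the threshold.

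Leaving out 1 library at a time gave 39 to 41 higher and 1 to 2 lower at S983A 16 h FSK, 35 to 37 and 3 to 5 at 8 h FSK, 0 and 1 at 1 h FSK, 19 to 20 and 4 to 5 at 16 h Ex-4, 14 to 16 and 0 to 2 at 8 h Ex-4, 29 to 31 and 0 for FSK against Ex-4, 27 to 29 and 0 for WT 8 h FSK against Ex-4, and 11 to 12 and 8 to 9 for the genotype difference. Usp18 became a lower call at 16 h FSK without replicate 2 of that group (-0.61), Gng8 and Spr at 8 h FSK without replicate 1 of S983A CON (-0.61 and -0.59), Spr also without replicate 2 of S983A 8 h FSK (-0.63), and Gng8 at 8 h Ex-4 without replicate 1 of S983A CON (-0.64). S100a3 lost its call at 8 h Ex-4 without replicate 1 of that group (-0.58). The lone library left in a group is assumed to vary like the others. The cause of these changes was not tested. Over all tested genes, median centring moved the higher and lower calls from 1188 and 3550 to 2225 and 2207 at S983A 8 h FSK, from 1255 and 2168 to 1755 and 1616 at 16 h FSK, and from 490 and 2396 to 1058 and 1195 for WT 8 h FSK against Ex-4. ERCC scaling gave 2032 and 529 for S983A 16 h FSK against Ex-4, in place of 592 and 1085. For WT 8 h FSK against Ex-4 it gave 343 and 3395, in place of 490 and 2396. Each group had 2 libraries, and Casp4 in WT cells rested on few fragments.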

Other observations

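Of the 20 members that were chosen with and without median centring, 16 rose and 1 fell at 16 h FSK in S983A cells, where 12.2% of all tested genes were called higher and 21.1% lower. At 16 h Ex-4 8 rose and 4 fell, against 4.73% and 7.15% of all genes, and 12 were higher and 0 lower with FSK than with Ex-4 at 8 h in WT cells, against 4.77% and 23.3%. The medians were 1.55, 0.04 and 0.85. With 16 h Ex-4 these 20 thus had a lower median than the 52, at 0.04 against 0.26, a difference that was not tested.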
